A study of Homo sapiens with 24 samples.

Results

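The LCE3 genes encode late cornified envelope proteins, small proteins that keratinocytes make at the end of their differentiation. The genes LCE3A, LCE3C, LCE3D and LCE3E were taken by their symbols from a table of read counts, 4 of 26364 genes. They were chosen by 1 result already known, their values at the Differentiated stage: lower than NT in KAT2B_KD and higher than NT in KAT2AB_KD. The differences between genotypes at that stage that involve KAT2B_KD or KAT2AB_KD are therefore given as a description, with no test. All 4 passed the filter on low counts, among 15757 genes that did. LCE3B, the fifth gene of the cluster, is given beside them where it helps.

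Late cornified envelope genes lie side by side in the epidermal differentiation complex, a block of chromosome 1 that also holds the genes for involucrin, loricrin, filaggrin and the small proline-rich proteins. Transglutaminases link such proteins to one another under the cell membrane as keratinocytes die and flatten, which forms the cornified envelope. The LCE1 and LCE2 genes are known mainly from healthy skin, whereas the LCE3 genes are known for their induction after barrier injury and in psoriasis, and LCE3 proteins have antibacterial activity in culture.

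The cells were nTERT-1, an immortalised human keratinocyte line, and polyadenylated RNA was sequenced. The labels give 4 genotypes: NT, KAT2A_KD, KAT2B_KD and KAT2AB_KD, the last carrying both knockdowns. KAT2A and KAT2B are paralogous histone acetyltransferases that sit in the same kinds of coactivator complex. Each genotype was sampled at 3 culture stages, Subconfluent, Confluent and Differentiated, the last being day 4 in the deposited sample table, and each of the 12 groups had 2 libraries. No allele, drug or other agent beyond the knockdowns and the stages is named. The labels do not explain NT, the knockdown method, or whether libraries of a group are separate cultures, so p-values measure only the spread between libraries, which may be technical.

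Libraries held 8010178 to 16054003 counts. Before differentiation, KAT2A stood at 30.1 to 38.5 CPM in NT (CPM is a gene's reads scaled to the size of its library), 3.46 to 5.06 in KAT2A_KD and 1.67 to 10.4 in KAT2AB_KD. At Differentiated it stood at 3.03 and 4.94 CPM in KAT2A_KD, 1.98 and 6.85 in KAT2AB_KD, and 12.8 and 9.995 in NT. Before differentiation KAT2B stood at 4.06 to 5.58 CPM in NT, 0.152 to 1.25 in KAT2B_KD and 0.902 to 2.96 in KAT2AB_KD. At Differentiated it stood at 44.9 and 40.4 CPM in NT, 4.58 and 8.59 in KAT2B_KD and 5.85 and 18.9 in KAT2AB_KD, where the second library kept more of both transcripts than the first. The summed CPM of 7 keratinocyte markers ran from 14430 to 75109 over the 24 libraries. Fibroblast markers (8 genes) summed to 1.64 to 53.7 CPM, melanocyte markers (7 genes) to 4.71 to 17.7, leukocyte markers (6 genes) to 0.989 to 15.8 and endothelial markers (4 genes) to at most 3.46.

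The sequences just upstream of 3 of the genes are shown as a description. The members varied together across the Differentiated libraries, but they were chosen for the same moves there, so this is tied to the choice. Each line is the 130 bases before the RefSeq transcript start in GRCh38.p14, 5′ to 3′ on the gene's own strand, and capitals mark runs of at least 8 bases found in all 3 windows. Runs that overlap in a window are joined in the marking, so a capital stretch can be longer than any run that all 3 share. LCE3C lies on the + strand (chr1:152600104-152600233), LCE3D on the - strand (chr1:152580517-152580646) and LCE3E on the - strand (chr1:152566781-152566910). The models of LCE3A and LCE3B in the same tables hold only the coding sequence, so their windows do not start at a transcript start and are not shown.
LCE3C: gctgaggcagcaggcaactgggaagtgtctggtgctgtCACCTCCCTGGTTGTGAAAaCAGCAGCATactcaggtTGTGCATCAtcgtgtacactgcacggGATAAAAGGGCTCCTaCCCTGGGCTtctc
LCE3D: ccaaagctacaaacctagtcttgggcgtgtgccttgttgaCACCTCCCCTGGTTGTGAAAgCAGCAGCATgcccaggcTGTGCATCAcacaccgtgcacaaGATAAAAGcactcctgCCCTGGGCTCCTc
LCE3E: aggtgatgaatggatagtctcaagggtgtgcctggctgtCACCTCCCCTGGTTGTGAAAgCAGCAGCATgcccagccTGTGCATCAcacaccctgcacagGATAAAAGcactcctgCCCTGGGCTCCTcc

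The longest run shared by all 3 windows, CCCTGGTTGTGAAA, began at position -87 in LCE3C, -84 in LCE3D and -85 in LCE3E, counted back from the start. It occurred on either strand in 3 of 35116 upstream windows of 250 bases, those of these 3 genes (0.00854%). The shared runs were picked because all 3 windows hold them, so the hits in these 3 were fixed in advance. How rare a run is elsewhere is a description and was not tested. The other shared runs were more common: TGTGCATCA occurred in 54 windows (0.154%), CAGCAGCAT in 141 (0.402%) and GATAAAAG in 270 (0.769%), among them 7 of the 18 LCE genes with a window in the RefSeq table. The letters TATAAA were in none of the 3 windows, against 10.7% of all windows and 9 of the 18 LCE windows. ATAAAA, which overlaps GATAAAAG, was in all 3, at position -28 or -29, against 14.8% of all windows. All 18 LCE windows held ATAAAA, so it does not set these 3 genes apart from the family. The AP-1 consensus TGANTCA was in none of the 3 and in 0 of the 18 LCE windows, against 6.57% of all windows. AACCGG, a grainyhead-type core, was in none of the 3 and in 1 of the 18, that of LCE3A, against 5.99%. The 18 include the windows of LCE3A and LCE3B, which are counted back from the coding start. Of the 3, only the LCE3E window held the KLF-type core CACCC, which was in 11 of the 18 LCE windows and 54.7% of all windows. These matches describe the letters of the windows and were not tested as binding sites.

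In NT cells the LCE3 genes were almost silent in growing cultures and rose steeply with differentiation. LCE3D, the member with the most reads, was at 0 and 0 CPM in the Subconfluent libraries, 0.157 and 0.356 in the Confluent libraries, and 91.4 and 119.4 in the Differentiated libraries. LCE3E went from 0 and 0 to 0.236 and 0.285, then to 85.9 and 106.6 CPM. The Differentiated libraries of both genes stood far above all the others, with no overlap. All 4 members rose from Confluent to Differentiated in NT by edgeR's quasi-likelihood test with Benjamini-Hochberg adjustment over all genes, a test that 24.3% of genes passed upward. The NT Differentiated libraries were also the reference by which the genes were chosen. A gene far lower in KAT2B_KD has to be well expressed in them, so this rise is tied to the choice. Before differentiation LCE3A reached at most 0.597 CPM and LCE3C 0.833 CPM in a library, so their place in the test rests on the Differentiated libraries.

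LCE3D rose by 8.61 (SE 0.42) and LCE3E by 8.47 (SE 0.37) on the log2 scale. LCE3C had 3 reads in the Confluent NT libraries together and 35.6 and 37.3 CPM at Differentiated, a ratio of 325 with a 95% counting interval of 111 to 1580. LCE3A had no read in the Confluent NT libraries and 21.4 and 21.8 CPM at Differentiated, at least 193-fold higher when the empty group is set to 3 counts in all. Floors and intervals cover counting error only. From Subconfluent to Confluent no member passed the test in NT, where 0.685% of genes passed upward and 0.216% downward. None passed in KAT2A_KD (0.159% and 0.0762% of genes), KAT2B_KD (1.09% and 0.52%) or KAT2AB_KD (0.343% and 0.267%) either. Of these 16 values, 2 had an unadjusted p under 0.05, those of LCE3D and LCE3E in NT (adjusted p = 0.171 and 0.123 in edgeR), and DESeq2 called 0.

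The climb at differentiation was also present in each knockdown, at different heights. In KAT2A_KD all 4 members rose (21.4% of genes did), LCE3D by 6.21 (SE 0.36) and LCE3E by 6.75 (SE 0.34) on the log2 scale. In KAT2AB_KD and KAT2B_KD the Differentiated libraries are those by which the genes were chosen, so the size of the climb is tied to the choice and is described without p-values. In KAT2AB_KD the fitted log2 difference from Confluent was 8.64 for LCE3A, 8.05 for LCE3C, 7.94 for LCE3D and 8.08 for LCE3E. All 4 were past the threshold upward, as were 22.6% of all genes. The choice of the genes bears on this count too, so it is a description and not a test of the members.

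In KAT2B_KD, with 0 reads of LCE3D and LCE3E in the Confluent libraries, LCE3D stood at 4.02 and 4.63 CPM and LCE3E at 3.27 and 4.71 CPM at Differentiated. That is at least 34.7-fold higher for LCE3D and at least 32.4-fold for LCE3E. The fitted log2 difference of LCE3C was 3.50 (SE 0.67). LCE3A stood at 0.374 and 0.897 CPM, 16 reads in all, against 0 reads, at least 5.28-fold.

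The rest of the late envelope programme can be set beside this from lists of related genes. In NT, 10 of 10 LCE1 and LCE2 genes, 3 of 3 of LCE4A, LCE5A and LCE6A, and 26 of 26 tested genes of the list of other epidermal differentiation complex genes passed upward at differentiation. LCE5A rose by 7.81 (SE 0.89) and LCE1B by 4.52 (SE 0.58) on the log2 scale. In KAT2B_KD, 25 of the 26 other complex genes passed upward against 1 of 10 LCE1 and LCE2 genes and 0 of 3 of LCE4A, LCE5A and LCE6A. The LCE1 gene that passed was LCE1A, from 0.26 to 0.97 CPM (adjusted p = 0.049). Whether the rise in KAT2B_KD differed between the LCE families was not tested. These LCE counts rest on few reads that may be shared between genes: in the first KAT2B_KD Confluent library 9 LCE genes had exactly 1 read each, and in the second 6 had 3 each.

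At Differentiated the 4 genotypes stood at separate heights for most members. The first value in each pair below is from replicate 1. LCE3D was at 428.6 and 494.5 CPM in KAT2AB_KD, 91.4 and 119.4 in NT, 94.4 and 63.7 in KAT2A_KD, and 4.02 and 4.63 in KAT2B_KD. LCE3E was at 385.5 and 454.4 CPM in KAT2AB_KD, 85.9 and 106.6 in NT, 82.6 and 57.8 in KAT2A_KD, and 3.27 and 4.71 in KAT2B_KD. For both genes the KAT2AB_KD libraries were the highest and the KAT2B_KD libraries the lowest, and NT overlapped KAT2A_KD for LCE3D but not for LCE3E.

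LCE3C was at 145.0 and 182.6 CPM in KAT2AB_KD, 35.6 and 37.3 in NT, 31.3 and 25.1 in KAT2A_KD, and 2.34 and 1.72 in KAT2B_KD. LCE3A was at 80.4 and 93.4 CPM in KAT2AB_KD, 21.4 and 21.8 in NT, 17.8 and 11.7 in KAT2A_KD, and 0.374 and 0.897 in KAT2B_KD. The order KAT2AB_KD, NT, KAT2A_KD, KAT2B_KD was the same for both, with no overlap between any of the 4 genotypes. With LCE3E this held for 3 of 4 members, beside 2.87% of all genes, and the choice of the genes bears on it. In bulk samples such as these, fewer cells of a type and less RNA per cell cannot be told apart.

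**Figure D1:**
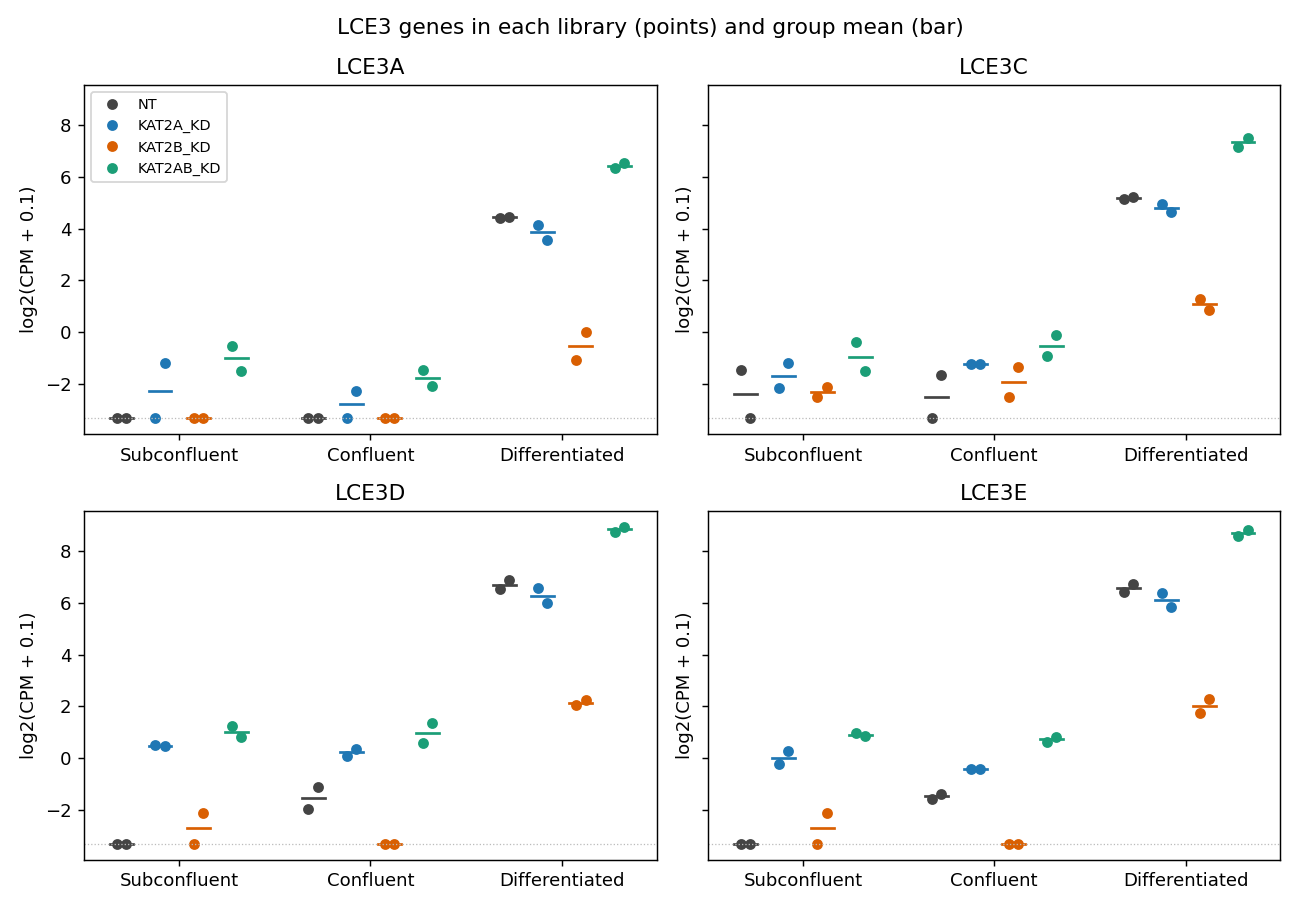
LCE3A, LCE3C, LCE3D and LCE3E in each of the 24 libraries, as log2(CPM + 0.1) on the vertical axis by culture stage. Points are libraries, bars are the mean of the 2 log2 values of a group, colours are genotypes and the dotted line marks 0 reads. At Differentiated the KAT2AB_KD points are the highest and the KAT2B_KD points the lowest in every panel.

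The differences that chose the members were these. In KAT2B_KD against NT at Differentiated, the fitted log2 fold change was -5.02 for LCE3A, -4.17 for LCE3C, -4.60 for LCE3D and -4.58 for LCE3E, with a median of -4.59 beside 0.02 over all 15757 genes. Both KAT2B_KD libraries lay below both NT libraries for 4 of 4 members; 22.7% of all genes did so. In KAT2AB_KD against NT it was 2.01 for LCE3A, 2.17 for LCE3C, 2.13 for LCE3D and 2.13 for LCE3E, a median of 2.13 beside 0.00 over all genes. Both KAT2AB_KD libraries lay above both NT libraries for 4 of 4; 21.9% of genes did so. These 2 comparisons share their NT libraries and the choice of genes fixed their direction.

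KAT2AB_KD was also set directly against KAT2B_KD, a difference whose direction the choice of the genes fixed too. The fitted log2 difference was 7.03 for LCE3A, 6.34 for LCE3C, 6.73 for LCE3D and 6.70 for LCE3E, with no overlap for 4 of 4 (24% of genes). KAT2A_KD lay above KAT2B_KD by 3.80 to 4.47 (21.2% of genes did not overlap in this direction) and below KAT2AB_KD by 2.54 to 2.58 (18.6%). LCE3B, not among the chosen members, was at 83.4 and 115.5 CPM in KAT2AB_KD, with fitted log2 differences from NT of 2.19 in KAT2AB_KD and -4.42 in KAT2B_KD.

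The markers of other cell types were low in all 8 Differentiated libraries. Fibroblast markers summed to 31.9 and 33.6 CPM in KAT2B_KD, 35.7 and 35.8 in KAT2AB_KD and 40.5 and 53.7 in NT, with 2 of 8 genes at 0 in each group. Melanocyte markers summed to 6.95 to 9.63 CPM in KAT2B_KD, 13.8 to 16.6 in KAT2AB_KD and 10.9 to 13.1 in NT. Leukocyte markers summed to 6.95 to 15.8 CPM in KAT2B_KD, 9.51 to 13.6 in KAT2AB_KD and 6.69 to 9.11 in NT, and endothelial markers to at most 3.46. The 7 keratinocyte markers summed to 48385 to 75109 CPM in KAT2B_KD, 33662 to 47316 in KAT2AB_KD and 57361 to 60218 in NT, so the KAT2AB_KD sums were the lowest while its LCE3 levels were the highest. The part of these markers in the LCE3 differences was not tested.

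The KAT2A knockdown alone, whose comparison with NT was not used to choose the genes, showed no member past the test at Differentiated. The fitted log2 fold change was -0.55 (SE 0.37, adjusted p = 0.594 in edgeR) for LCE3A, -0.37 (SE 0.31, adjusted p = 0.705) for LCE3C, -0.41 (SE 0.25, adjusted p = 0.527) for LCE3D and -0.45 (SE 0.22, adjusted p = 0.407) for LCE3E. The test was passed upward by 0.92% of genes and downward by 0.298%. All 4 values were below 0, and both KAT2A_KD libraries lay below both NT libraries for 3 of 4 members, LCE3A, LCE3C and LCE3E, as they did for 22.1% of all genes. Missing the threshold does not show that the levels were equal. In the same comparison FOS, an AP-1 subunit on the list of regulators, was higher by 2.16 (SE 0.45) on the log2 scale. The list of other complex genes had 1 of 26 lower, PRR9, and the LCE1 and LCE2 families had 0 of 10 in either direction.

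The make-up of the LCE3 reads varied little among most Differentiated libraries. LCE3D gave 35.5% to 38.6% of the reads of LCE3A to LCE3E in the 8 Differentiated libraries and LCE3E gave 28.9% to 37.1%. LCE3C gave 12.1% to 20.7%, LCE3B 5.88% to 11.6% and LCE3A 3.31% to 8.43%. In the 6 libraries without KAT2B_KD, where reads were plentiful, LCE3E had 0.875 to 0.941 reads for each read of LCE3D, LCE3C had 0.313 to 0.395 and LCE3A had 0.182 to 0.234. The lowest LCE3A and LCE3E shares and the highest LCE3B and LCE3C shares came from the first KAT2B_KD library, which had 43 reads of LCE3D against 5202 in the first KAT2AB_KD library.

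**Figure D2:**
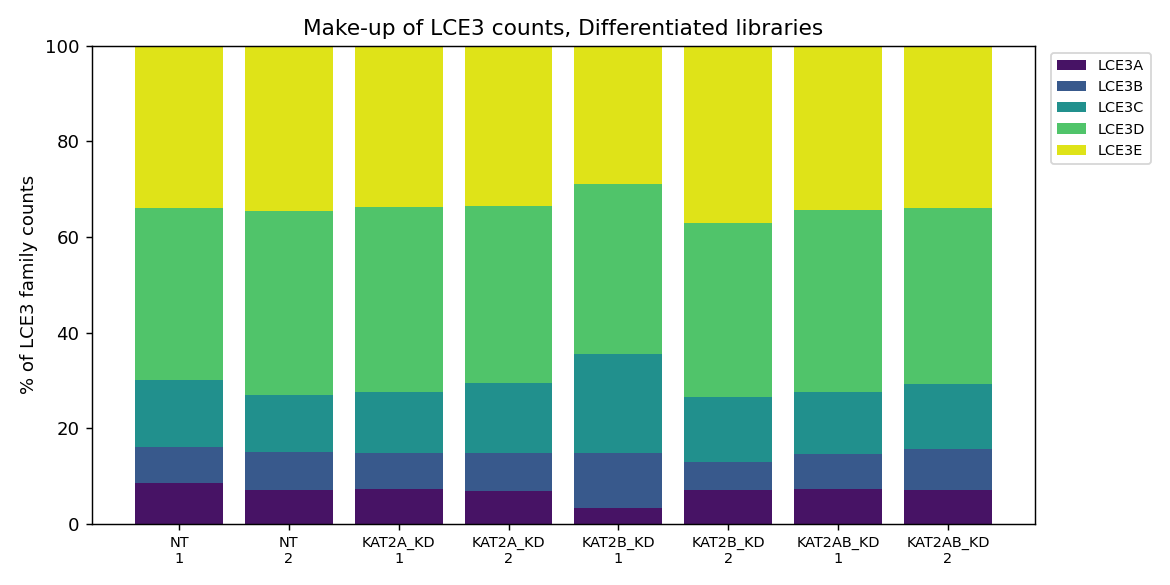
Share of each gene in the summed reads of LCE3A to LCE3E (vertical axis, percent) in the 8 Differentiated libraries. LCE3D takes 35.5% to 38.6% in every library, and the first KAT2B_KD library has the highest share of LCE3C, 20.7%, and the lowest of LCE3E, 28.9%.

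Per transcript length the members were closer to one another than by reads. In NT at Differentiated the level per kilobase was 172 CPM for LCE3D, 158 for LCE3E, 85.8 for LCE3C and 79.9 for LCE3A, where the LCE3A length of 270 bases is the coding part alone, which makes its value per kilobase uncertain. Similar sequence also limits how firmly reads can be given to 1 member. LCE3D and LCE3E share 79 of the 564 possible 50-base words of the LCE3D transcript (14.0%), whereas LCE3A and LCE3C share no 50-base word with another LCE gene. At 36 bases LCE3C shares 19 of 390 words with LCE2A to LCE2D, LCE3D and LCE3E. The treatment of reads that match several genes is not given in the sources used here. In the first NT Subconfluent library 9 of the 18 LCE genes of the count table, LCE3C among them, had exactly 4 reads each, so low counts of LCE3C and of the LCE1 and LCE2 genes are uncertain. In the second KAT2B_KD Subconfluent library LCE3C, LCE3D and LCE3E had 2 reads each, so those counts of LCE3D and LCE3E are uncertain too.

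Before differentiation the LCE3 genes were at trace levels, yet LCE3D and LCE3E were higher in KAT2AB_KD, and in part in KAT2A_KD, than in NT. At Subconfluent LCE3D was at 2.26 and 1.63 CPM in KAT2AB_KD, 1.30 and 1.26 in KAT2A_KD, 0 and 0.131 in KAT2B_KD, and 0 and 0 in NT. LCE3E was at 1.86 and 1.69 CPM in KAT2AB_KD, 0.742 and 1.09 in KAT2A_KD, 0 and 0.131 in KAT2B_KD, and 0 and 0 in NT. The KAT2AB_KD libraries were the highest, KAT2A_KD came next, and KAT2B_KD lay with NT. Both KAT2AB_KD libraries were above both KAT2A_KD libraries for these 2 members, as they were for 22.4% of all genes. These stages were not used to choose the genes.

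In KAT2AB_KD against NT at Subconfluent 2 of 4 members passed upward, where 1.86% of all genes did. LCE3D had 60 reads against 0, at least 17.3-fold higher (adjusted p = 0.0002 in edgeR), and LCE3E had 55 against 0, at least 15.8-fold (adjusted p = 0.0001). LCE3A had 13 reads against 0, at least 3.74-fold, and did not pass (adjusted p = 0.0922), although 3 members in place of 2 passed in this comparison with DESeq2, and 3 without the filter on low counts. LCE3C had 14 reads against 4 and did not pass (adjusted p = 0.41).

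In KAT2A_KD against NT at Subconfluent the same 2 genes passed upward, where 0.267% of genes did. LCE3D had 36 reads against 0, at least 11.4-fold higher (adjusted p = 0.0052 in edgeR), and LCE3E had 25 against 0, at least 7.95-fold (adjusted p = 0.0061). These calls were lost when 1 library was left out: for LCE3D without the first (adjusted p = 0.0912) or second NT library (0.0687), and for LCE3E without the first NT (0.128), the second NT (0.0803) or the second KAT2A_KD library (0.0507). Both were also lost with the compared groups fitted alone. No member passed in KAT2B_KD against NT at Subconfluent, where 0.019% of genes passed upward and 0.0698% downward; 0 members had an unadjusted p under 0.05 there and 0 passed with DESeq2.

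Between the knockdowns at Subconfluent, KAT2AB_KD was above KAT2B_KD for 2 of 4 members (2.09% of genes), with a ratio of 27.5 for LCE3D (95% counting interval 7.29 to 232, adjusted p = 0.0003 in edgeR) and 25.2 for LCE3E (6.66 to 213, adjusted p = 0.0002). KAT2A_KD was above KAT2B_KD for the same 2 (0.476% of genes), with a ratio of 18.2 for LCE3D (4.70 to 156, adjusted p = 0.0086) and 12.7 for LCE3E (3.16 to 110, adjusted p = 0.0176). Both of the last 2 calls were lost without the first KAT2B_KD library and without the first KAT2A_KD library, and that of LCE3E also without the second KAT2A_KD library and with DESeq2 (adjusted p = 0.0788). Both were lost with the compared groups fitted alone, too. The KAT2B_KD side of these ratios rests on 2 reads of each gene, all in the second KAT2B_KD library, and those reads may be shared between the genes. KAT2AB_KD against KAT2A_KD called no gene at all (0%). Its log2 difference was 0.59 (SE 0.38) for LCE3D and 0.98 (SE 0.36) for LCE3E.

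At Confluent the order was similar. LCE3D was at 1.38 and 2.43 CPM in KAT2AB_KD, 0.961 and 1.18 in KAT2A_KD, 0.157 and 0.356 in NT, and 0 and 0 in KAT2B_KD. LCE3E was at 1.43 and 1.67 CPM in KAT2AB_KD, 0.641 and 0.646 in KAT2A_KD, 0.236 and 0.285 in NT, and 0 and 0 in KAT2B_KD. For both genes no 2 genotypes overlapped, which held for 1.93% of all genes. KAT2AB_KD was above NT for 2 of 4 members (1.39% of genes): LCE3D by 2.79 (SE 0.51, adjusted p = 0.0047 in edgeR) and LCE3E by 2.51 (SE 0.47, adjusted p = 0.0056) on the log2 scale.

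Without the first NT Confluent library neither passed (adjusted p = 0.106 for LCE3D and 0.0943 for LCE3E), and without the second LCE3E did not (adjusted p = 0.0657). With the compared groups fitted alone neither passed. LCE3B passed as well, with 16 reads against 0 (at least 4.29-fold, adjusted p = 0.0485 in edgeR). In KAT2A_KD against NT no member passed (0.267% of genes passed upward and 0.381% downward); LCE3D differed by 1.98 (SE 0.59, adjusted p = 0.236), and by 1.99 without the filter on low counts, where it passed (adjusted p = 0.0319). In KAT2B_KD against NT no member passed either (0.0698% of genes passed upward and 0.393% downward), with 0 reads of LCE3D and of LCE3E against 7 of each in NT.

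KAT2AB_KD was above KAT2B_KD at Confluent for 2 of 4 members (1.26% of genes), at least 14.6-fold for LCE3D and at least 12.2-fold for LCE3E (adjusted p = 0.0004 and 0.0003 in edgeR), but for neither with the compared groups fitted alone. KAT2A_KD was above KAT2B_KD for the same 2 (0.254% of genes), at least 8.39-fold for LCE3D (adjusted p = 0.013) and at least 5.11-fold for LCE3E (adjusted p = 0.0347). The LCE3E call was lost when any 1 of these 4 libraries was left out. The LCE3D call was lost without either KAT2B_KD library and without the second KAT2A_KD library, and both were lost with the compared groups fitted alone. KAT2AB_KD against KAT2A_KD called none of the members (0.00635% of genes upward and 0% downward). The log2 difference was 0.81 (SE 0.41) for LCE3D and 1.25 (SE 0.41) for LCE3E.

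Whether a knockdown's difference from NT itself changed between Subconfluent and Confluent was also tested, and no gene of the whole table passed for KAT2A_KD, KAT2B_KD or KAT2AB_KD (0% in each). For KAT2A_KD the change of its difference from NT between Confluent and Differentiated called no member (0.489% of genes passed upward and 0.127% downward), with -2.40 (SE 0.64, adjusted p = 0.13 in edgeR) for LCE3D and -1.72 (SE 0.63, adjusted p = 0.341) for LCE3E. Between Subconfluent and Differentiated it called 2 of 4, LCE3D and LCE3E (0.197% of genes passed downward): both had passed above NT at Subconfluent and neither passed at Differentiated. In the test from Confluent 1 member passed with DESeq2, and 1 without the filter on low counts.

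**Figure D3:**
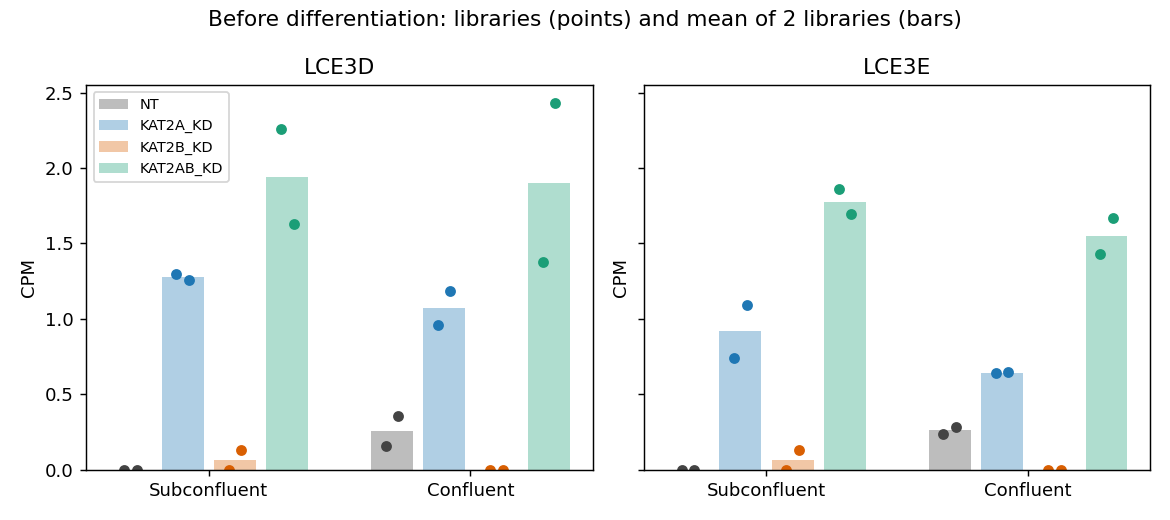
LCE3D and LCE3E before differentiation, in CPM on a linear axis from 0, with the 2 libraries of each group as points and their mean as a bar. KAT2AB_KD libraries sit at 1.38 to 2.43 CPM for LCE3D, above KAT2A_KD, while NT and KAT2B_KD sit at 0.356 or less.

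Over all 12 groups LCE3D ran from 461.5 ± 46.6 CPM (SD, n = 2) in KAT2AB_KD Differentiated through 105.4 ± 19.8 in NT and 79.0 ± 21.7 in KAT2A_KD to 4.33 ± 0.432 in KAT2B_KD, all at Differentiated. NT and KAT2A_KD overlapped in this order. Below them came KAT2AB_KD at Subconfluent (1.94 ± 0.442) and Confluent (1.90 ± 0.745), which overlapped, then KAT2A_KD at Subconfluent (1.28) and Confluent (1.07), which did not. NT Confluent (0.256), KAT2B_KD Subconfluent (0.065), NT Subconfluent (0) and KAT2B_KD Confluent (0) closed the order. The KAT2B_KD Differentiated libraries, at 4.02 and 4.63 CPM, thus stood nearer to the undifferentiated KAT2AB_KD libraries than to Differentiated NT.

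Among other genes of the programme, part of each list passed in KAT2AB_KD against NT before differentiation, while no gene of the other LCE groups did. At Subconfluent 14 of 26 other complex genes passed upward and 0 downward, 5 of 24 skin repair and antimicrobial genes, 4 of 31 regulators and 4 of 13 crosslinking and cornification enzymes, beside 1.86% of all genes upward. The list of LCE1 and LCE2 genes had 0 of 10 and that of LCE4A, LCE5A and LCE6A 0 of 3. Most of these genes had few reads. In the first KAT2AB_KD Subconfluent library LCE2A, LCE2B, LCE2D and LCE5A had 1 read each, LCE2C and LCE6A 0 and LCE4A 3. The members LCE3A and LCE3C, also with few reads, did not pass either. Whether the LCE families differed was not tested. SERPINB3, a serpin family gene of stressed epidermis, rose by 3.85 (SE 0.39). TGM1, the transglutaminase of the envelope, rose by 3.57 (SE 0.37), and ZNF750, a factor needed for late differentiation, by 3.10 (SE 0.53).

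At Confluent the counts were 12 of 26, 4 of 24, 7 of 31 and 4 of 13 beside 1.39% of all genes. The LCE groups again had 0 of 10 and 0 of 3, most of their genes with few reads. MAF, a transcription factor of late keratinocyte differentiation, rose by 2.64 (SE 0.27) on the log2 scale. In KAT2A_KD at Subconfluent 2 of 26, 3 of 24, 1 of 31 and 1 of 13 genes passed upward beside 0.267% of all genes, among them SERPINB3 by 3.15 (SE 0.40), HOPX by 3.54 (SE 0.64) and TGM1 by 2.30 (SE 0.37). LCE1C was at 0.87 CPM in KAT2AB_KD and 0.22 in NT at Subconfluent and did not pass.

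Along the epidermal differentiation complex, the LCE3 genes form an unbroken run, places 9 to 13 of 49 tested genes in RefSeq order from RPTN to S100A7. At Differentiated the values beside NT on either side were as follows, as a description. CRCT1, the neighbour on one side, was at -3.57 in KAT2B_KD and 1.41 in KAT2AB_KD on the log2 scale. LCE5A next to it was at 34.5 and 49.1 CPM in KAT2AB_KD, 8.41 and 12.5 in NT, and 1.12 and 0.373 in KAT2B_KD. LCE2D, the neighbour on the other side, was at -2.52 and 1.29. The 10 LCE1 and LCE2 genes had medians of -2.71 in KAT2B_KD and 1.51 in KAT2AB_KD, and LCE4A, LCE5A and LCE6A had -3.84 and 1.66. The list of other complex genes had -1.29 and 0.89. Each LCE3 value in KAT2AB_KD, from 2.01 to 2.19, was above that of every other gene drawn, but the margin was small. LCE5A came next at 1.997 (SE 0.48), followed by KPRP at 1.979 (SE 0.46), both within their SE of the lowest LCE3 value. The members were chosen for values above NT in KAT2AB_KD, so their place in this order is tied to the choice.

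Some genes of the complex did not share both directions. LOR, which encodes loricrin, was at -4.56 in KAT2B_KD and -1.41 in KAT2AB_KD. IVL, which encodes involucrin, was at -1.63 and 0.06, and SPRR1B, a small proline-rich gene, was at -0.36 and -0.29. These 3 were chosen after their values were seen.

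**Figure D4:**
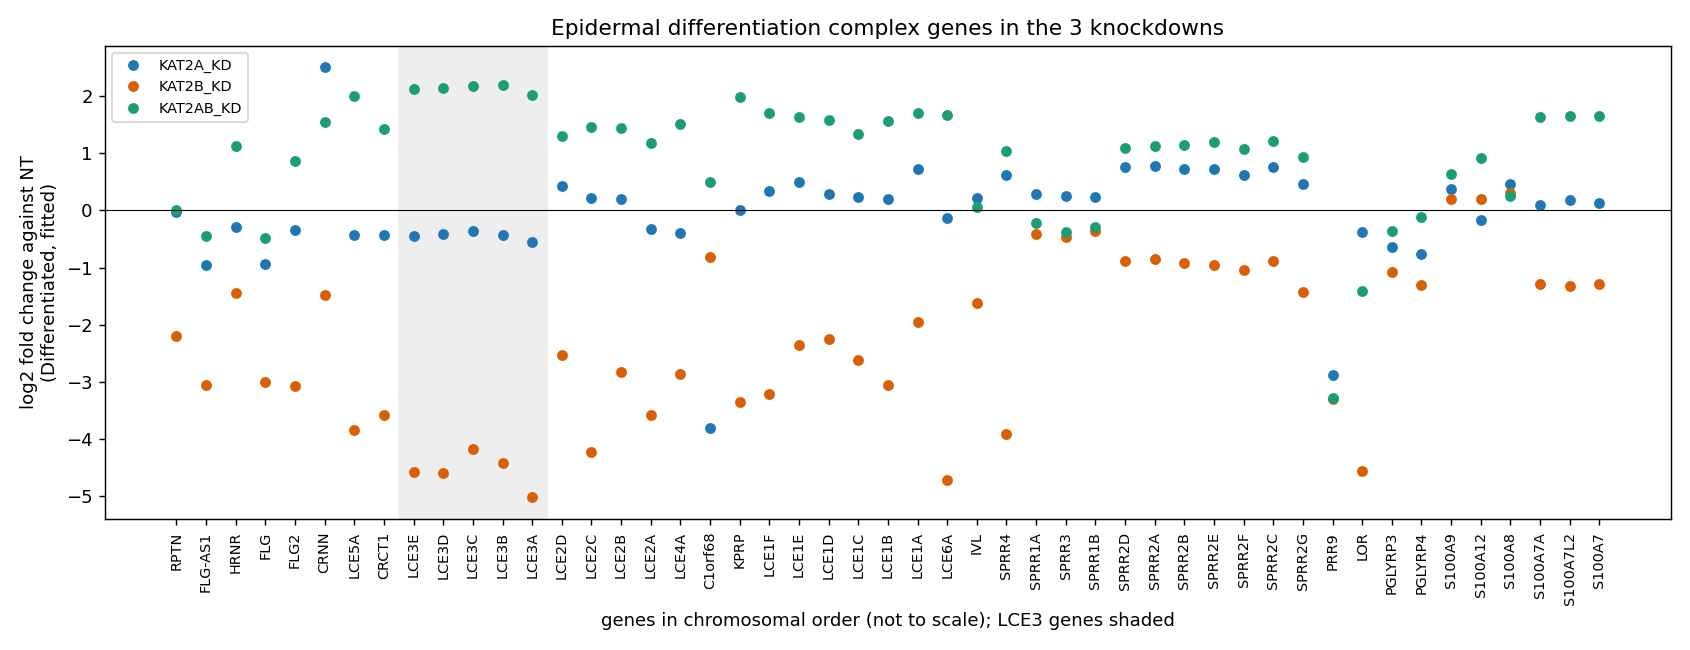
Fitted log2 fold change against NT at Differentiated (vertical axis) of the 49 tested genes of the epidermal differentiation complex, in chromosomal order and not to scale, with the LCE3 genes shaded. KAT2AB_KD points of the 5 LCE3 genes lie at 2.01 to 2.19 and KAT2B_KD points at -5.02 to -4.17.

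The genes outside the LCE family with the most similar profile were found by the root mean square difference of centred log2 CPM from the mean of the members. Over all 24 libraries they were ASPRV1 (0.87), AZGP1 (0.89), CRCT1 (0.89), KLK12 (0.95) and SLC15A1 (0.97), of 15739 genes. Over the 8 Differentiated libraries they were ASPRV1 (0.59), KPRP (0.60), CRCT1 (0.63), PADI1 (0.73) and SMPD3 (0.74), of 12508 genes. With a prior count of 3 in place of 1, ELMOD1 came first over the 8 libraries (0.53) and PADI1 was no longer among the 5; with 0.25 the 5 genes were the same and KPRP came first. The members themselves lay within 0.05 to 0.27 of their mean over those 8, and 0.51 to 0.73 from it over all 24. Each member is part of that mean, which brings it closer than a gene outside. With a prior count of 0.25 over 24 libraries, LCE3C (1.18) but no other member lay farther from it than KLK12 (1.17).

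ASPRV1, the skin aspartic protease that trims profilaggrin, was at 278.7 and 285.1 CPM in KAT2AB_KD, 114.5 and 93.0 in NT, 123.1 and 63.0 in KAT2A_KD, and 8.89 and 6.35 in KAT2B_KD. PADI1, a peptidylarginine deiminase, was at 22.7 and 38.9 CPM in KAT2AB_KD, 18.6 and 14.1 in NT, and 0.655 and 0.972 in KAT2B_KD. SMPD3, a sphingomyelinase, was at 36.7 and 31.9 CPM in KAT2AB_KD and 1.22 and 1.35 in KAT2B_KD. Each had its KAT2AB_KD libraries highest and its KAT2B_KD libraries lowest. These genes were picked for likeness to the members over the same libraries, so that order is tied to the choice.

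**Figure D5:**
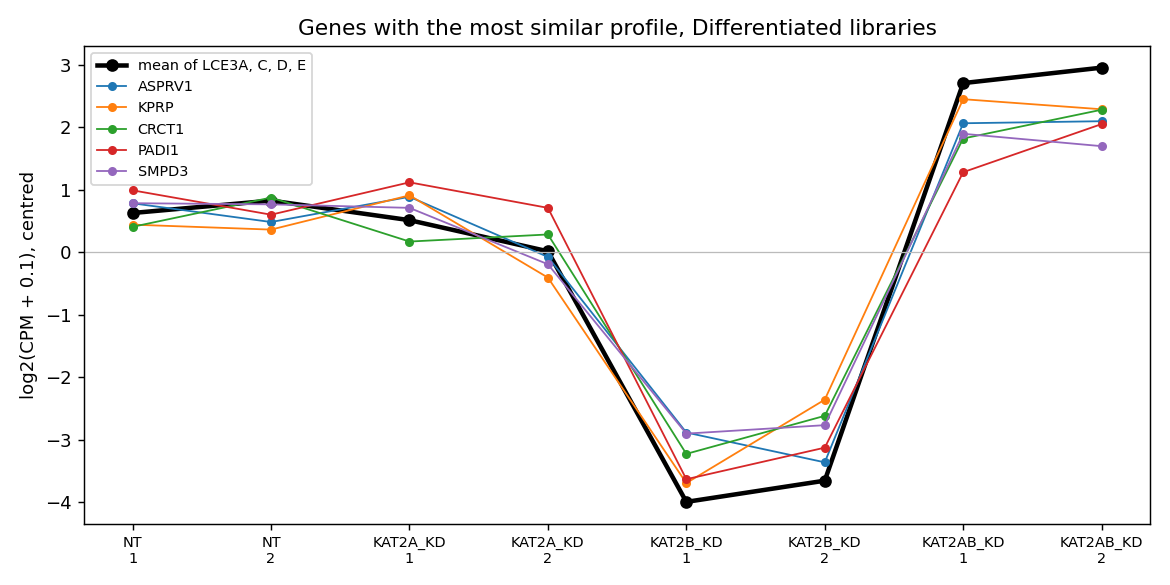
Centred log2(CPM + 0.1) of the mean of LCE3A, LCE3C, LCE3D and LCE3E (thick line) and of the 5 genes with the most similar profile over the 8 Differentiated libraries on the horizontal axis. All 6 lines are lowest in the KAT2B_KD libraries and highest in the KAT2AB_KD libraries, and the LCE3 line has the widest span. The 5 genes were picked for this likeness.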

How the data were processed

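RNA sequencing of 24 libraries (12 groups of 2) gave the deposited table of raw counts per gene. Per the submitters' processing notes, the tools were featureCounts, Bowtie2, DESeq2 and FastQC on build hg19; versions, annotation, strand setting and multi-mapping rule are not given in the sources used here. The deposited signal table holds these counts after division by a size factor for each library (largest relative deviation 4.98e-07) and served only as a check. Of the deposited count columns, 1 matched no sample and was not used.

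The test was that of edgeR 4.0.16 (R 4.3.3): filterByExpr by group, TMM scaling and 1 quasi-likelihood fit over all 12 groups with no covariate (12 residual degrees of freedom, median prior 7.36, common biological coefficient of variation 0.218). CPM values are counts scaled with the TMM factors. P-values were adjusted by Benjamini-Hochberg over the 15757 genes tested within each comparison, and a gene passed under 0.05. The comparisons share NT libraries within a stage. Where a group had no reads, folds are lower bounds against 3 counts over the group; with 1 to 3 reads the ratio has a 95% counting interval. The script was tested on simulated data. DESeq2 1.42.0, RLE scaling, no filter, fits on the compared groups alone, a replicate block and leaving out each library were alternatives.

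The members and gene lists were chosen with earlier results of these data known. Named genes are the LCE3 genes, KAT2A, KAT2B, up to 3 genes of each list with the lowest p in a comparison, other LCE genes, KPRP, and the 5 genes with the most similar profile (prior count 1) over 24 libraries or 8, the latter among genes whose mean log2 CPM there is 1 or more. The values of 1 gene that this rule names are not reported here. Sequences, gene order and names come from RefSeq tables on GRCh38.p14, another build than that of the files, so no hg19 coordinates are given. Transcript lengths and words come from GENCODE transcripts.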

Additional observations from a re-analysis of the deposited data

Results flagged for a closer look

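For 2 members the difference between KAT2A_KD and NT itself changed between stages. From Subconfluent to Differentiated the fitted log2 difference of KAT2A_KD from NT moved by -7.50 for LCE3D and by -7.03 for LCE3E (adjusted p = 0.0036 for both in edgeR's quasi-likelihood test, which 0.197% of genes passed downward). At Subconfluent both KAT2A_KD libraries were above the NT libraries, which had 0 reads of either gene, and at Differentiated the fitted values were -0.41 and -0.45. Because NT was at 0, the fitted sizes depend on the prior count and are no bound. Without the first NT Subconfluent library 1 of the 2 still passed. The same difference was not tested for KAT2B_KD and KAT2AB_KD at Differentiated, whose values chose the members.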

How the results depend on the processing

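The choice of the genes fixed the signs of the KAT2B_KD and KAT2AB_KD differences at Differentiated. Only the range of their sizes is given here. The median log2 fold change against NT stayed between -4.80 and -4.41 in KAT2B_KD and between 1.99 and 2.25 in KAT2AB_KD when single libraries were left out, and between 6.57 and 6.94 for KAT2AB_KD against KAT2B_KD. All 4 members passed upward at differentiation under each alternative in NT and KAT2A_KD. In NT that rise is tied to the choice of the genes. The comparisons before differentiation rest on few reads and moved more. With the compared groups fitted alone, 0 members passed in KAT2A_KD against NT at Subconfluent, KAT2A_KD against KAT2B_KD at either stage, and KAT2AB_KD against NT or KAT2B_KD at Confluent; such fits have fewer libraries behind the spread. DESeq2 called 1 member for KAT2A_KD against KAT2B_KD at each of these stages and 1 for the change of the KAT2A_KD difference from Confluent to Differentiated, where edgeR called 0. Without the low-count filter 1 member passed in that last test and 1 in KAT2A_KD against NT at Confluent. Leaving out single libraries gave 0 to 2 members for KAT2A_KD against NT and against KAT2B_KD at Subconfluent and for KAT2AB_KD against NT at Confluent, 0 to 1 for KAT2A_KD against KAT2B_KD at Confluent, and 1 to 2 for the change of the KAT2A_KD difference from Subconfluent to Differentiated. Values that changed sign were those near 0: Confluent against Subconfluent, LCE3C ran from -0.064 to 1.31 in KAT2A_KD and from -0.12 to 1.25 in KAT2AB_KD and LCE3D from -0.47 to 0.32 in KAT2AB_KD, and LCE3C in KAT2A_KD against NT at Subconfluent ran from -0.28 to 4.55. With a prior count of 0.25, 3 of the 5 genes most like the members over 24 libraries remained. The cause of these moves was not tested.

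The replicate number as a block changed no count of members called, for example 4 for NT at differentiation. The numbers were not taken to pair libraries: the replicate difference correlated between groups with a median of 0.111 (range -0.214 to 0.352), over 0.1 in 35 of 66 pairs of groups.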
